A study of Mus musculus with 9 samples.

Results

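The mitochondrial respiratory chain genes were examined in back skin of C57BL/6J mice treated with imiquimod, as 84 of the 19505 named genes on the array. Members were taken by gene symbol alone, as rows whose symbol begins with Nduf and a subunit letter (a, b, c, s or v) and number, is Sdha to Sdhd, or begins with Uqcr, with Cox and a number from 4 to 8, or with Atp5. These gave 37 genes of complex I, 4 of complex II, 8 of complex III, 18 of complex IV and 17 of complex V. Each symbol had 1 row in the table, and no member shared all its values with another gene.

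The respiratory chain sits in the inner mitochondrial membrane. Complexes I and II pass electrons from NADH and succinate to coenzyme Q, complex III passes them to cytochrome c, complex IV passes them to oxygen, and complex V makes ATP from the proton gradient that the others build. Several complex IV subunits are encoded by a widely expressed gene and by a second gene used mainly in muscle or another tissue. Skin holds cells of very different mitochondrial content, from keratinocytes, sebocytes and adipocytes to the thin muscle layer under the dermis.

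All 9 samples came from animals aged 8 weeks (strain C57BL/6J) whose back hair had been removed and whose skin received 5% imiquimod cream on each of 7 days. Imiquimod is a Toll-like receptor agonist that causes psoriasis-like dermatitis. In 5 samples (stretch) the skin was also under traction from a device glued to it and lengthened by 10 mm on the first day, and 4 samples had no stretch. The labels do not say whether non-stretched skin carried the device, nor whether the samples come from different mice. The spread behind each p-value is therefore that among these arrays, and some of it may be technical. No sample without imiquimod was analysed here. Values are log2 expression values of Affymetrix arrays, and a difference of 1 is a 2-fold change. In whole skin, fewer cells of a type and less RNA per cell cannot be told apart. Skin markers were present, as the 10 basal and 9 suprabasal keratinocyte markers averaged 12.0 to 12.9 and 14.9 to 16.9 per array, against 6.66 to 6.69 for all genes. Stretch replicate 1 and no-stretch replicate 3 had the lowest array weights (0.55 and 0.58, against 0.76 to 1.58 for the other 7), and where leaving out the first moved a difference strongly, the value without it is given too.

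Sequence upstream of the start site is shown first for 5 members, chosen because Ndufb7, Uqcr11 and Cox7a1 had some of the smallest p-values and because Cox7a2 and Cox6a1 are widely expressed complex IV genes that set stretch replicate 1 apart. RefSeq promoter windows (GRCm38.p6, 250 bases before to 50 after a start site) were listed for 69 of the 84 members, as 74 windows. Those printed are the 250 bases before the start, 5′ to 3′ on the gene's strand. Capitals mark matches, on either strand, to CGCATGCG (the core bound by NRF1), CCGGAA (the core bound by ETS factors such as GABPA), AAGATGGC (YY1) or TATAAA (the TATA box).
Ndufb7 (GRCm38.p6, chr8:83566508-83566757, + strand): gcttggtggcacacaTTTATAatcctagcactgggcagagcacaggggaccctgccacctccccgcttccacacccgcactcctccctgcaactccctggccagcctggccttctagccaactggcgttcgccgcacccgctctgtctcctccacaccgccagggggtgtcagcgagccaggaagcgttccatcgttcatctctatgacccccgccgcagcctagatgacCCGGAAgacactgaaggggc
Uqcr11 (GRCm38.p6, chr10:80406822-80407071, - strand): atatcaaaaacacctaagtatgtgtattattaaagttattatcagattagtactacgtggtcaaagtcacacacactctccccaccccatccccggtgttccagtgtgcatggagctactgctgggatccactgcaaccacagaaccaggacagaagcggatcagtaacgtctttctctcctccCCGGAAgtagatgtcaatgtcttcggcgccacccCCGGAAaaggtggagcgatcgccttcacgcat
Cox7a1 (GRCm38.p6, chr7:30183921-30184170, + strand): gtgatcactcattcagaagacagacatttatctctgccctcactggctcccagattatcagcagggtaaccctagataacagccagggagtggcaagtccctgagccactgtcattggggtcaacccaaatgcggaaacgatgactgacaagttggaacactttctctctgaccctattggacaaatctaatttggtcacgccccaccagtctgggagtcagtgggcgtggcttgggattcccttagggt
Cox7a2 (GRCm38.p6, chr9:79759854-79760103, - strand): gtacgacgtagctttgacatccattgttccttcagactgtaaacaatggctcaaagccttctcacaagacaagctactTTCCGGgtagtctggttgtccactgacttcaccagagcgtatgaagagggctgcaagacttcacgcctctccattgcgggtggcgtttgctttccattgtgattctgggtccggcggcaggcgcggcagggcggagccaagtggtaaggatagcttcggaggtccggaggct
Cox6a1 (GRCm38.p6, chr5:115348959-115349208, - strand): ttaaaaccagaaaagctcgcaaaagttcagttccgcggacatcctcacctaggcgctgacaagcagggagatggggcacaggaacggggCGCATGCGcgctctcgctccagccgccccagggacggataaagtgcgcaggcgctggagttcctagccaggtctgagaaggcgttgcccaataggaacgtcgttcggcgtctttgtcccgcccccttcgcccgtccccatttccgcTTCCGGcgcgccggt

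The upstream stretch of Cox6a1 held 1 NRF1 and 1 ETS core, that of Ndufb7 1 ETS core and 1 TATAAA, that of Cox7a2 1 ETS core, and that of Uqcr11 held 2 ETS cores. The whole window of Uqcr11 also had an NRF1 core, which does not lie wholly within the printed part. The stretch of Cox7a1, the muscle form, held no match to any of these letters and 4 CpG dinucleotides, against 14 in that of its widely expressed counterpart Cox7a2. Over whole windows, the NRF1 core was in 12.2% of the 74 member windows and 1.87% of all 32851 windows. The ETS core was in 36.5% against 14.9%, and the YY1 core in 13.5% against 2.75%. TATAAA was in 12.2% against 13.6%, and CTAAAAATA, a form of the MEF2 site of muscle genes, was in 0 of the 74 and 0.518% of all. No matches of different motifs overlapped in the member windows. The median member window held 19 CpG dinucleotides and the median of all windows 7. A match is a description of letters and not a binding site.

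None of the 84 respiratory chain genes passed the test between stretched and non-stretched skin, and the differences in means lay between -0.74 and 0.96 on the log2 scale. With limma's moderated test and Benjamini-Hochberg adjustment over all 19505 genes, 0 of 84 members had an adjusted p under 0.05 (all genes: 0.246%), and the smallest adjusted p was 0.18. At an unadjusted p under 0.05 there were 8 members, 7 higher and 1 lower with stretch, or 9.52% of the members, against 13% of all genes. Without stretch replicate 4 the shares were 11.9% against 10.9%, and without no-stretch replicate 2 they were 11.9% against 11.6%, so their order depended on single arrays. By direction, 8.33% of members were higher and 1.19% lower at that level, against 6.92% and 6.07% of all genes. Of all genes, 0.082% were higher and 0.164% lower at an adjusted p under 0.05. Stretch and no-stretch values were fully apart for 3 members (3.57%, all genes: 4.54%). These were Ndufb8 and Ndufb4, both higher (all genes: 2.38%), and Atp5a1, lower (all genes: 2.15%).

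The members' differences were small and more often above 0. The difference was above 0 for 59 of 84 members, and the median log2 difference was 0.15, against -0.0034 over all genes, of which 49.6% were above 0. By complex the medians were 0.14 for complex I, 0.041 for complex II, 0.17 for complex III, 0.039 for complex IV and 0.20 for complex V. The median of complex II was below 0 under quantile normalization (-0.0086) and when stretch replicate 4 (-0.012) or no-stretch replicate 2 (-0.032) was left out. Leaving out single arrays moved the median of all members between 0.068 (without stretch replicate 3) and 0.19 (without stretch replicate 2). Without no-stretch replicate 1 the median of complex I was 0.033 and that of complex IV -0.046, and 47 members were above 0. The median of complex V was 0.13 once stretch replicate 1 was left out, or 0.10 once no-stretch replicate 1 was. For 60 of the 84 members (71.4%) the 95% confidence interval of the difference lay within 1 log2 unit of 0, a 2-fold change either way, as it did for 81.0% of all genes. Precision is limited by how few arrays there are, and for the other 24 members a 2-fold difference lies inside the interval.

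**Figure D1:**
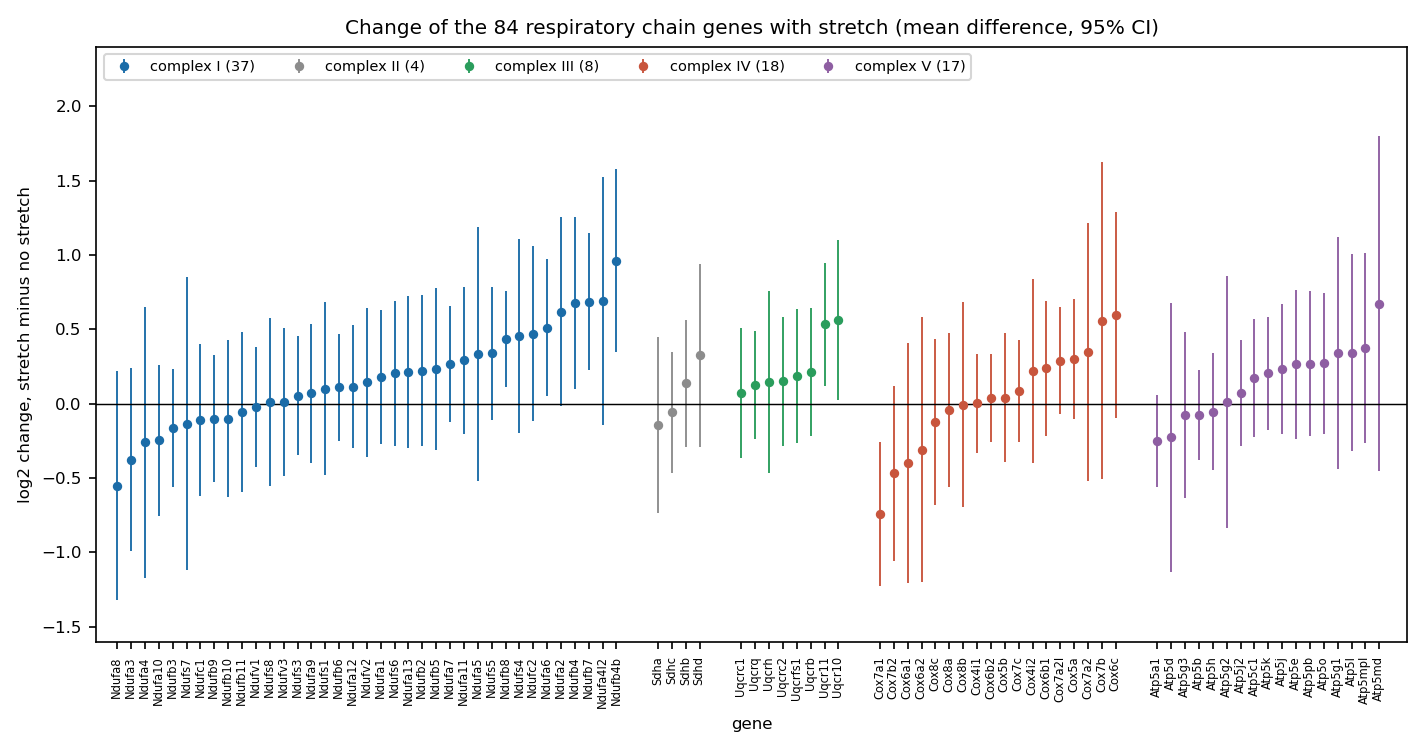
Log2 difference (stretch minus no stretch, y axis) of each of the 84 genes, ordered within complexes I to V along the x axis; points are differences in means and bars are 95% confidence intervals from limma's fit. The points lie between -0.74 (Cox7a1) and 0.96 (Ndufb4b), and 8 intervals leave out 0.

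Single arrays differed more than the groups did. Set against each gene's mean over the no-stretch arrays, the median of the 84 members was 0.15, 0.068, 0.39, -0.0064 and 0.12 on stretch arrays 1 to 5 and -0.25, 0.095, 0.056 and 0.091 on no-stretch arrays 1 to 4. Stretch replicate 3 was thus the highest array and no-stretch replicate 1 the lowest, and the other 7 lay between -0.0064 and 0.15 whatever their group. Of the 84 members, 36 had their lowest value of all 9 arrays in no-stretch replicate 1 (42.9%, against 9.72% of all genes), and 22 had their highest in stretch replicate 3 (26.2%, against 11.8%). Stretch replicate 1 held the highest value of 30 members (35.7%, against 15.5%) and the lowest of 21 (25%, against 15.6%), and so held extremes both ways. The complexes did not follow one order. On stretch replicate 1 the medians of complexes I and III were 0.41 and 0.39, while that of complex II was -0.53, and on no-stretch replicate 1 complex II was at 0.16 while complexes I, III and IV were at -0.28, -0.24 and -0.25.

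**Figure D2:**
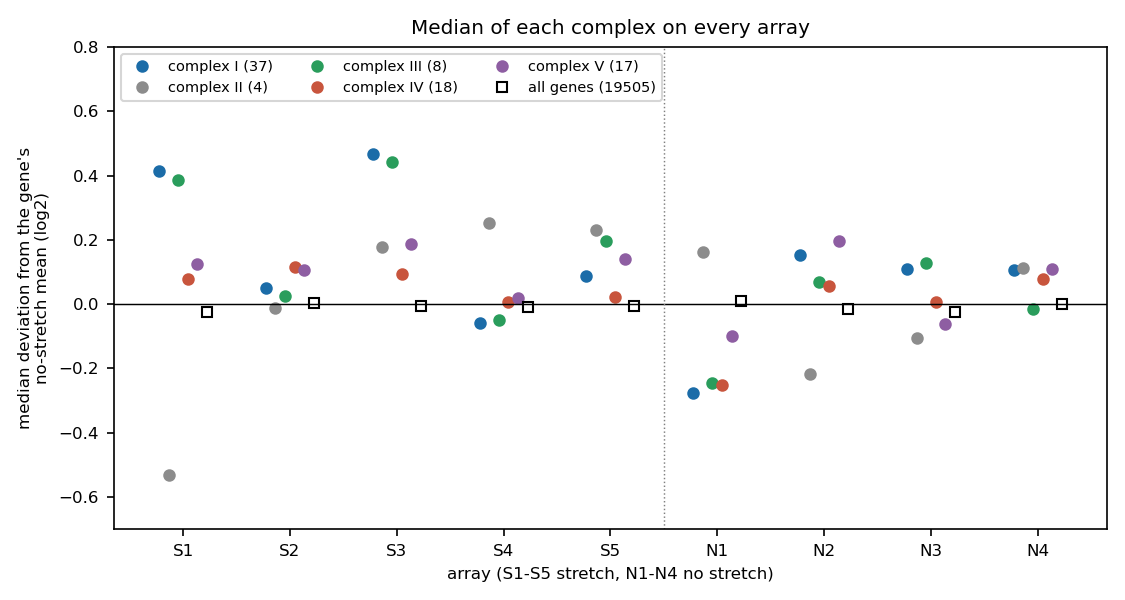
Median over the members of each complex of the log2 deviation from the gene's mean over the 4 no-stretch arrays (y axis), for each array (x axis, S stretch, N no stretch); squares are the median of all genes. Complexes I and III are highest on S1 and S3 (0.39 to 0.47) and complex II is lowest on S1 (-0.53), while all genes stay near 0.

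Stretch replicate 1 split the respiratory chain. On this array 24 of 84 members (28.6%) lay over 1 log2 unit from the median of the other 8 arrays, 15 above and 9 below, against 7.56% of all genes and 13.3% of genes above the median level. On the other 8 arrays 0 to 3 members did so. The widest gaps above were in Atp5md (2.71 above the median of the other 8), Cox7b (2.54), Cox7a2 (1.81), Ndufa5 (1.77) and Cox6c (1.68). The widest below were in Cox6a1 (-1.88), Ndufs7 (-1.86), Cox6a2 (-1.84), Atp5d (-1.83) and Ndufa8 (-1.78). These were chosen after their values were seen, and they span complexes I, IV and V in both directions. On the other arrays the same 15 genes had median gaps between -0.60 and 0.24, and the same 9 between -0.28 and 0.43. Both sets were picked by their gaps on stretch replicate 1, so smaller gaps on the other arrays follow in part from that choice. Without stretch replicate 1 the median difference over all members was 0.12, 63 members were above 0, 5 had an unadjusted p under 0.05 (5.95%, all genes 12.8%) and 76 had an interval within 1 log2 unit of 0. The mean of 20 skeletal muscle markers was also lowest on this array, at 12.9 against 14.2 to 15.0 on the other 8; their part in the split was not tested.

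**Figure D3:**
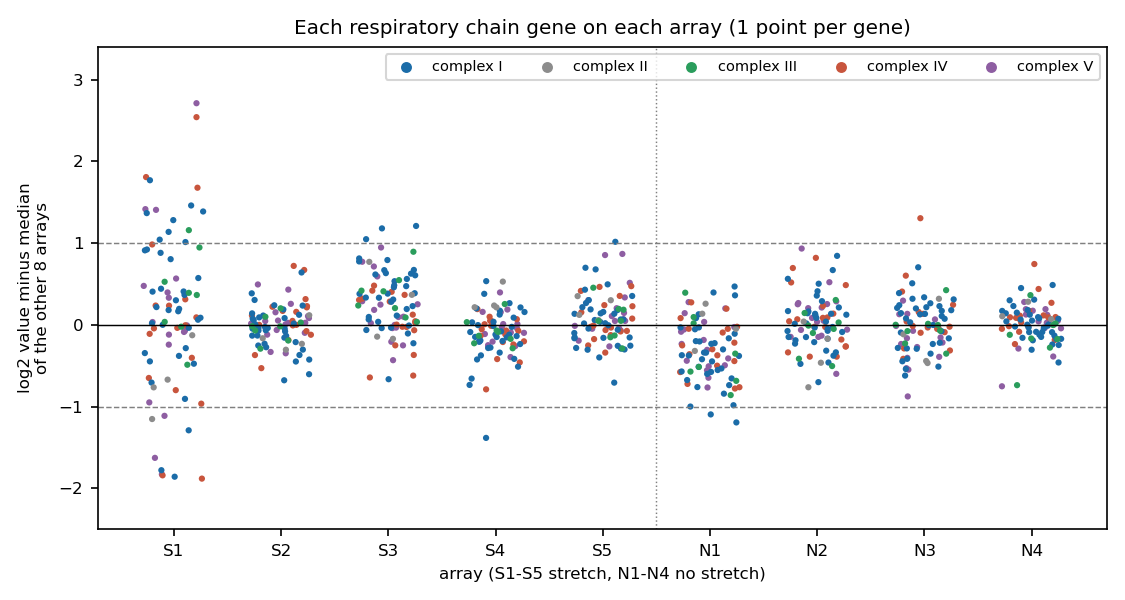
Log2 value of each of the 84 genes minus its median over the other 8 arrays (y axis), for each array (x axis); 1 point is 1 gene, coloured by complex, and dashed lines mark a gap of 1. On S1 the points run from -1.88 to 2.71, and 24 lie outside the lines.

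Complex I takes electrons from NADH through its matrix arm and pumps protons through its membrane arm. Its core subunits, some of which carry the flavin and iron-sulphur clusters, had no member that passed. The 6 measured (Ndufs1, Ndufs3, Ndufs7, Ndufs8, Ndufv1 and Ndufv2) had differences between -0.13 and 0.14 (-0.092 to 0.27 without stretch replicate 1). None of the 6 had an unadjusted p under 0.05. The 9 accessory subunits of the matrix arm were all above 0 (median 0.27), and 1 of them, Ndufa6, had an unadjusted p under 0.05 (difference 0.51, limma adjusted p = 0.33). These counts rested partly on stretch replicate 1, since without it 6 of 9 were above 0 with a median of 0.17. None of the 9 then had an unadjusted p under 0.05, and the difference of Ndufa6 was 0.39. Of the 20 accessory subunits of the membrane arm, 12 were above 0. At an unadjusted p under 0.05 there were 4, all higher (20%, all genes higher: 6.92%): Ndufb4b, Ndufb7, Ndufb8 and Ndufb4. Without stretch replicate 1 there were 3 (15%, all genes 12.8%), and Ndufb4 was no longer among them. The rows named Ndufb4 and Ndufb4b may not be independent, as described below.

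Ndufb7, an accessory subunit on the intermembrane face of the membrane arm, was at 9.06, 8.75, 9.04, 9.04 and 8.58 on stretch arrays 1 to 5 and 7.76, 8.04, 8.30 and 8.74 on no-stretch arrays 1 to 4. All stretch arrays lay at 8.58 or above, and no-stretch replicate 4 exceeded stretch replicate 5 only. The means were 8.89 ± 0.22 (SD, n = 5) on the stretch arrays and 8.21 ± 0.42 (SD, n = 4) on the others, a difference of 0.69 with a standard error of 0.21 (95% confidence interval 0.22 to 1.15, limma adjusted p = 0.20). Ndufb8, also a membrane arm subunit, was at 8.28, 8.39, 8.40, 8.30 and 8.15 on stretch arrays 1 to 5 and 7.65, 7.88, 7.93 and 8.03 on no-stretch arrays 1 to 4. The groups did not overlap, and their gap was narrow, between 8.03 and 8.15. The difference was 0.43 with a standard error of 0.15 (limma adjusted p = 0.24), and it was 0.44 without stretch replicate 1. Leaving out no-stretch replicate 1 lowered the differences of Ndufb7 and Ndufb8 to 0.54 and 0.36.

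Ndufb4 and Ndufb4b carry names of copies of 1 subunit, and the array may not separate them. Their RefSeq windows, on different chromosomes, share a run of 26 bases around the start codon (capitals).
Ndufb4 (GRCm38.p6, chr16:37654344-37654369, - strand): gggagtcaagATGtcgggttccaagt
Ndufb4b (GRCm38.p6, chr19:25033132-25033157, + strand): gggagtcaagATGtcgggttccaagt
The row named Ndufb4b was at 13.45, 12.14, 13.22, 12.70 and 12.87 on stretch arrays 1 to 5 and 11.25, 12.07, 12.15 and 12.19 on no-stretch arrays 1 to 4. Stretch replicate 2 lay among the no-stretch arrays, and no-stretch replicate 1 was far below the other 3. The difference was 0.96 with a standard error of 0.28 (95% confidence interval 0.35 to 1.58, limma adjusted p = 0.18), the largest of the 84. Leaving out no-stretch replicate 1 lowered it to 0.74. The row named Ndufb4 had a difference of 0.68 (limma adjusted p = 0.31) and 0.49 without stretch replicate 1. Whether the probes of either row also bind RNA of the other copy was not tested, so both results are uncertain.

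Ndufa4, listed under a complex I name but now placed in complex IV, and its paralog Ndufa4l2, which hypoxia is known to induce, had differences of opposite sign, and neither passed. Ndufa4l2 was at 12.97, 12.15, 12.72, 10.79 and 11.53 on stretch arrays 1 to 5 and 11.33, 11.53, 11.02 and 11.49 on no-stretch arrays 1 to 4. Stretch replicates 1, 2 and 3 were above all no-stretch arrays, and replicate 4 was below them. Its difference was 0.69 (95% confidence interval -0.14 to 1.53, limma adjusted p = 0.48) and 0.46 without stretch replicate 1. Ndufa4 had a difference of -0.26 (-1.17 to 0.65) and ranged from 14.14 in stretch replicate 4 to 16.41 in stretch replicate 3, which spans all no-stretch values, and its difference was -0.47 without stretch replicate 1.

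Complex II, the succinate dehydrogenase that also belongs to the citric acid cycle, is encoded by 4 genes. Sdha, the flavoprotein, was at 6.61, 7.60, 7.62, 7.89 and 8.03 on stretch arrays 1 to 5 and 7.94, 7.74, 7.32 and 7.79 on no-stretch arrays 1 to 4. Stretch replicate 1 was the lowest array, and the other 4 stretch arrays lay within or just above the no-stretch range. Its difference was -0.15 (95% confidence interval -0.74 to 0.45) and turned to 0.089 without stretch replicate 1. Sdhb, the iron-sulphur subunit, had a difference of 0.14 (-0.29 to 0.57). The membrane anchors Sdhc and Sdhd had differences of -0.057 (-0.46 to 0.35) and 0.33 (-0.29 to 0.94), which went to 0.079 and 0.52 without stretch replicate 1. With all arrays none of the 4 had an unadjusted p under 0.05, and all 4 intervals lay within 1 log2 unit of 0. Without stretch replicate 1, 3 of the 4 intervals did.

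In complex III, which transfers electrons from coenzyme Q to cytochrome c, all 8 members were above 0 and none passed. Without stretch replicate 1, 7 of 8 were, Uqcrh being at -0.088. Cyc1, the cytochrome c1 subunit, falls outside the symbol rule and had a difference of 0.0026, or -0.13 without that array. The core proteins Uqcrc1 and Uqcrc2 and the Rieske iron-sulphur protein Uqcrfs1 had differences between 0.071 and 0.18. Uqcr11, the smallest subunit, was at 8.00, 7.68, 7.68, 7.73 and 7.46 on stretch arrays 1 to 5 and 6.73, 7.17, 7.49 and 7.31 on no-stretch arrays 1 to 4. Only stretch replicate 5 reached into the no-stretch range, below no-stretch replicate 3. The means were 7.71 ± 0.20 (SD, n = 5) on the stretch arrays and 7.17 ± 0.33 (SD, n = 4) on the others. Their difference was 0.53 with a standard error of 0.19 (limma adjusted p = 0.25), and 0.38 without no-stretch replicate 1. Uqcr10, another small subunit, was at 10.78, 9.94, 9.93, 9.79 and 9.89 on stretch arrays 1 to 5 and 9.19, 9.87, 9.80 and 9.14 on no-stretch arrays 1 to 4. Stretch replicate 1 stood high, and no-stretch replicates 2 and 3 lay among the other 4 stretch arrays. Its difference was 0.56 (95% confidence interval 0.026 to 1.10, limma adjusted p = 0.36) and 0.38 without stretch replicate 1. Uqcrb, which binds ubiquinone, had a difference of 0.21 (-0.22 to 0.64).

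**Figure D4:**
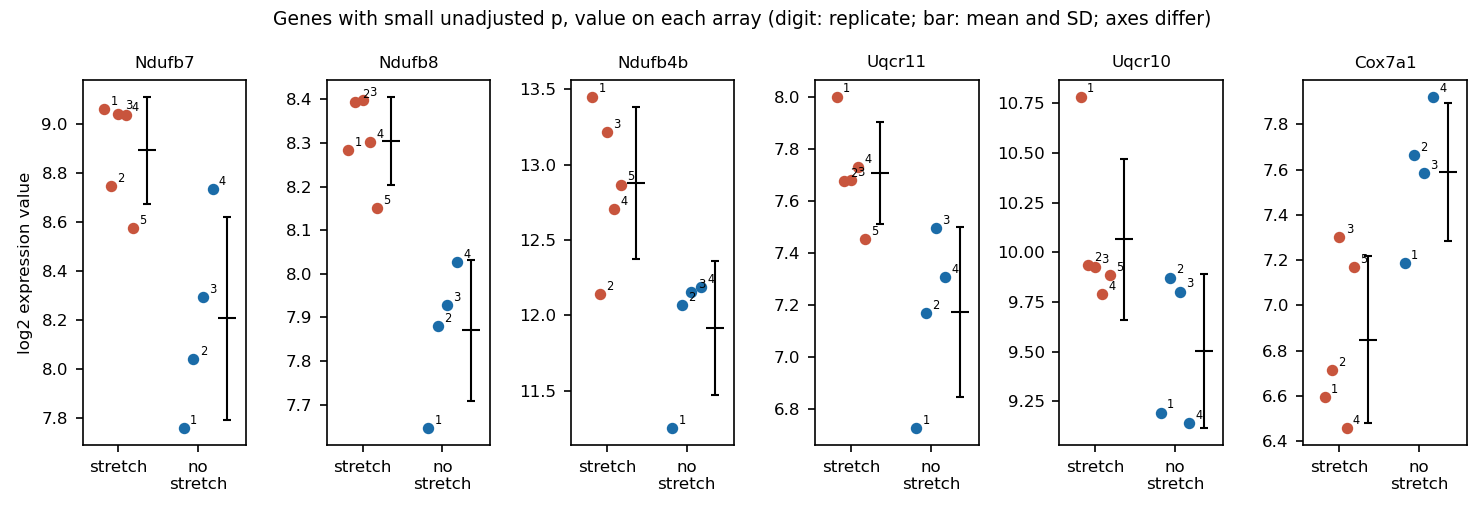
Log2 expression value (y axis, a separate scale for each gene) of 6 members on each array, with the replicate number beside each point and the group mean and SD as a bar (stretch n = 5, no stretch n = 4). Ndufb8 alone of the 6 has no overlap between groups, and Cox7a1 is the one that is lower with stretch (6.85 against 7.59).

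In complex IV, cytochrome c oxidase, the 11 widely expressed subunits had a median difference of 0.24 with 9 above 0, against 0.13 without stretch replicate 1, and none had an unadjusted p under 0.05. Cox4i1, a large regulatory subunit, was at 0.0021 (-0.33 to 0.33), a value whose sign turned under quantile normalization. Cox6c had the largest difference of the complex upwards, 0.60 (-0.098 to 1.29, limma adjusted p = 0.46), and was at 17.36, 15.65, 16.05, 15.72 and 15.84 on stretch arrays 1 to 5 and 15.33, 15.38, 15.82 and 15.59 on no-stretch arrays 1 to 4. Stretch replicate 1 carried much of this, as the difference was 0.29 without it. Cox7b was at 16.34 in stretch replicate 1 and between 13.36 and 14.21 on the other 8 arrays, and its difference went from 0.56 to 0.050 without that array. Cox7a2l had a difference of 0.29 (-0.071 to 0.65), and Cox6b1 one of 0.24 (-0.22 to 0.69).

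The muscle isoform Cox7a1 was the 1 member lower with stretch at an unadjusted p under 0.05. It was at 6.60, 6.72, 7.30, 6.46 and 7.17 on stretch arrays 1 to 5 and 7.19, 7.67, 7.59 and 7.92 on no-stretch arrays 1 to 4. Stretch replicates 1, 2 and 4 lay below all no-stretch arrays, stretch replicate 5 just below no-stretch replicate 1, and stretch replicate 3 just above it. The means were 6.85 ± 0.37 (SD, n = 5) on the stretch arrays and 7.59 ± 0.30 (SD, n = 4) on the others, a difference of -0.74 with a standard error of 0.22 (95% confidence interval -1.23 to -0.26), and limma adjusted p = 0.19, which missed the threshold. The difference was -0.68 without stretch replicate 1, and over all alternatives its adjusted p ranged from 0.10 to 0.43. Cox7a2, its widely expressed counterpart, was at 0.35 (-0.52 to 1.22) and at -0.036 without stretch replicate 1.

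The other 2 muscle isoforms were not lower once stretch replicate 1 was left out. Cox6a2 was at 8.21, 10.09, 10.46, 9.85 and 10.33 on stretch arrays 1 to 5 and 9.75, 10.67, 9.95 and 10.00 on no-stretch arrays 1 to 4. Apart from stretch replicate 1, the groups lay in one range, and the difference went from -0.31 to 0.087 without that array. Cox6a1, the widely expressed form, was low on the same array, at 11.02 against 12.53 to 13.32 on the other 8, and its difference went from -0.40 to -0.030. Cox8b had a difference of -0.0060 (-0.69 to 0.68), with a sign that turned under both rescalings and a value of 0.19 without stretch replicate 1, and Cox8a one of -0.042 (-0.56 to 0.47), or 0.16 without that array.

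Markers of the cell types in which the muscle isoforms are used did not share 1 direction. Of 20 skeletal muscle markers, all measured, 9 were above 0 and 11 below (median -0.021). At an unadjusted p under 0.05, 1 was higher and 1 lower (10%, all genes 13.0%), and none passed. Without stretch replicate 1, Cox7a1 stayed below 0, while 14 of the 20 markers were above 0 and their median was 0.41. In that setting 6 of the 20 markers had an unadjusted p under 0.05 in either direction (30%, all genes 12.8%). Their mean level per array was 12.9 to 15.0 with stretch and 14.2 to 14.7 without, and the lowest single value was 5.23, in Ckmt2. Ckmt2, the muscle mitochondrial creatine kinase, was at 6.03, 5.94, 8.76, 5.23 and 7.39 on stretch arrays 1 to 5 and 8.44, 8.23, 9.44 and 7.83 on no-stretch arrays 1 to 4, a difference of -1.81 (limma adjusted p = 0.24), while Actn3, an actinin of fast fibres, had 0.99 (limma adjusted p = 0.27). Cox7a1 is also used in brown fat. Of the 8 brown adipocyte markers, which include the member Cox8b, 2 were above 0 and 6 below (4 above without stretch replicate 1), with mean levels of 5.5 to 5.99 with stretch and 5.99 to 6.19 without. Ucp1, the uncoupling protein that defines brown fat, was at 2.44 to 3.10 on all arrays, while Elovl3, also a sebaceous gland gene, had the smallest p of the list (difference -2.67, limma adjusted p = 0.088). Of 11 general adipocyte markers, 10 were below 0 (median -0.75), with the smallest p in Plin1 (-1.51) and Adipoq (-1.75, limma adjusted p = 0.053 and 0.076). The part of these cell types in the lower Cox7a1 value was not tested.

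**Figure D5:**
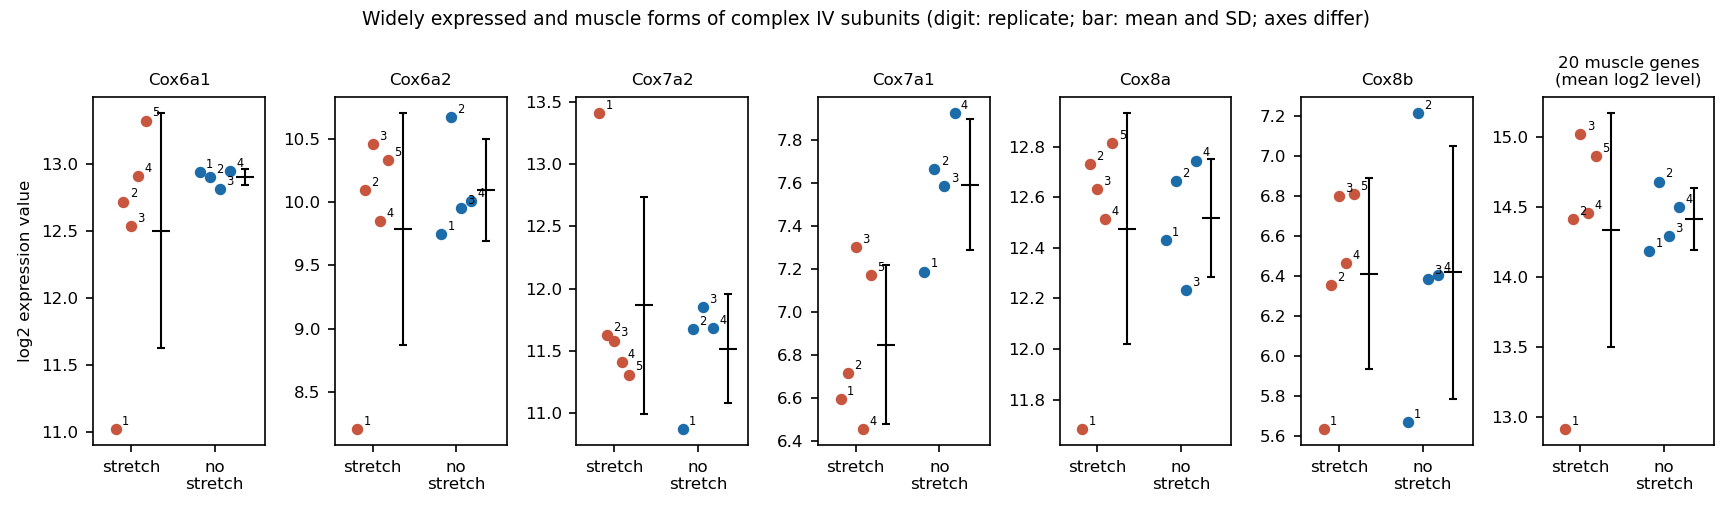
Log2 expression value (y axis, a separate scale for each panel) of 3 widely expressed complex IV genes beside their muscle forms, and the mean level of 20 skeletal muscle markers, on each array; digits are replicates, and bars are mean and SD (stretch n = 5, no stretch n = 4). Stretch replicate 1 is lowest for Cox6a1, Cox6a2, Cox8a and Cox8b and highest for Cox7a2, and its muscle marker mean is 12.9.

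None of the 4 remaining tissue isoforms had an unadjusted p under 0.05. Cox6b2 and Cox7b2, forms known from testis, had differences of 0.038 (-0.26 to 0.33) and -0.47 (-1.06 to 0.12), and Cox6b2 lay between 3.21 and 3.41 on all arrays. Cox7b2 rested on no-stretch replicate 3, at 4.97 against 3.39 to 4.10 on the other 8. Cox4i2, a form tied to low oxygen in lung, had 0.22 (-0.40 to 0.84), and 0.029 without stretch replicate 1, which at 5.08 was the highest array. Cox8c had -0.12 (-0.68 to 0.43), and -0.19 without that array. Whether these genes were expressed at all was not assessed.

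Complex V, the ATP synthase, had 12 of 17 members above 0 and none with an unadjusted p under 0.05. In the catalytic head, Atp5a1, the alpha subunit, was at 16.42, 16.55, 16.65, 16.42 and 16.62 on stretch arrays 1 to 5 and 16.91, 16.68, 16.77 and 16.76 on no-stretch arrays 1 to 4. The groups did not overlap, with all stretch arrays at 16.65 or below and all no-stretch arrays at 16.68 or above, but the difference was small, -0.25 (95% confidence interval -0.56 to 0.059, limma adjusted p = 0.49). Atp5b, the beta subunit that holds the catalytic sites, differed by -0.073 (-0.38 to 0.23). The 5 head and central stalk genes had a median of -0.073 (0.11 without stretch replicate 1) and the 4 of the peripheral stalk one of 0.25. The 3 genes for the c-ring, which encode the same mature protein, had differences of 0.34 (-0.44 to 1.12) for Atp5g1, 0.0099 (-0.84 to 0.86) for Atp5g2 and -0.074 (-0.63 to 0.48) for Atp5g3. Stretch replicate 1 was the lowest of the 9 arrays for all 3, and without it the differences were 0.58, 0.38 and 0.14.

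The 5 small membrane subunits of complex V were all above 0, with a median of 0.34 that went to 0.11 without stretch replicate 1. Atp5md, a small subunit of the synthase dimer, was at 16.72, 14.01, 14.03, 13.90 and 14.00 on stretch arrays 1 to 5 and 13.37, 14.26, 13.80 and 14.02 on no-stretch arrays 1 to 4. Stretch replicate 1 stood apart at 16.72, with the other 8 arrays between 13.37 and 14.26 and mixed by group. The difference was 0.67 (-0.45 to 1.80) and 0.13 without that array. Atp5mpl, a proteolipid of the same membrane part, went from 0.38 to 0.095 in the same way.

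Genes that build, feed or regulate the chain were described by counts beside the members. No gene of these 7 lists passed over all genes. Of 41 measured assembly factors 27 were above 0 (median 0.11), and 5 were higher and 0 lower at an unadjusted p under 0.05 (12.2%, all genes higher: 6.92%). Without stretch replicate 1 the median was 0.072 and 8 of 41 had an unadjusted p under 0.05 in either direction (19.5%, all genes 12.8%). Cox17, the copper chaperone of complex IV, was at 10.84, 11.37, 10.87, 11.40 and 11.23 on stretch arrays 1 to 5 and 9.81, 9.88, 10.59 and 10.79 on no-stretch arrays 1 to 4. The groups did not overlap, as in 3 of the 41 factors, all higher (7.32%, all genes higher: 2.38%). Its difference was 0.87 (limma adjusted p = 0.16). Uqcc1, an assembly factor of complex III, had 0.78 (limma adjusted p = 0.19). Among 15 genes of cytochrome c and coenzyme Q the median was 0.15, with Coq10b at 0.64 and Coq5, a methyltransferase of coenzyme Q synthesis, at -0.74 (limma adjusted p = 0.24 and 0.31).

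Fuel pathway genes had medians on both sides of 0. Of 17 citric acid cycle and pyruvate dehydrogenase genes 10 were below 0 (median -0.089), with Ogdh at -0.67 and Suclg2 at 0.53 (limma adjusted p = 0.20 and 0.16). Of 17 fatty acid oxidation genes 13 were below 0 (median -0.081), or 10 without stretch replicate 1, with Acadm and Hadh, both dehydrogenases of the pathway, at -0.64 and -0.79 (limma adjusted p = 0.25 and 0.33). Of 20 glycolysis genes 13 were above 0 (median 0.34), and 8 had an unadjusted p under 0.05, all higher (40%, all genes higher: 6.92%). The lactate exporter Slc16a3 had 1.21 and the glucose transporter Slc2a1 0.95 (limma adjusted p = 0.21 and 0.21). Carriers, uncouplers and membrane genes had a median of 0.0020 over 15 (0.15 without stretch replicate 1), with the fission gene Dnm1l at 0.54 and the channel Vdac3 at 0.36 (limma adjusted p = 0.28 and 0.47).

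Of 15 measured regulators of mitochondrial biogenesis 10 were above 0 (median 0.13). At an unadjusted p under 0.05 there were 2 (13.3%, all genes 13.0%), both higher (all genes higher: 6.92%). These were Pprc1, a coactivator of the PGC-1 family, at 0.57 and Yy1 at 0.53 (limma adjusted p = 0.24 and 0.36). Of the factors whose letters were searched above, Yy1 was at 13.00, 12.02, 12.05, 11.86 and 11.95 on stretch arrays 1 to 5 and 11.53, 11.75, 11.47 and 11.82 on no-stretch arrays 1 to 4. Its groups did not overlap, as in 2 of the 15 regulators, both higher (13.3%, all genes higher: 2.38%). Stretch replicate 1 stood apart from the rest, and the difference was 0.33 without it. Nrf1, also without overlap, differed by 0.31 (-0.018 to 0.63) and Gabpa by 0.17 (-0.24 to 0.58, and 0.068 without stretch replicate 1). Ppargc1a, the best known coactivator of the pathway, had -0.38 (-0.99 to 0.23). The 26 names searched for the mitochondrially encoded subunits matched no row, and those genes were not analysed here.

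The marker lists of 8 other cell types or layers had medians further from 0 than the respiratory chain, and 5 of their genes passed (all genes: 48 of 19505, 0.246%). These lists were chosen with earlier results of these data known. All 14 neutrophil and all 9 macrophage markers were above 0 (medians 1.35 and 0.67), with Clec4e at 3.18 and Cd14 at 2.26. Sebaceous gland markers were below 0 in 8 of 8 (median -2.17), of which Thrsp and Fasn passed (limma adjusted p = 0.029 and 0.045). Hair follicle markers had a median of -0.63 over 10, with Cd34 and Lhx2 past the threshold, and fibroblast markers one of -0.82 over 9, with Dpt past it. Suprabasal keratinocyte markers had a median of -0.79 over 9, basal ones 0.40 over 10 and endothelial ones 0.40 over 8. Of the basal markers 7 were above 0 and 3 below, from -1.16 to 1.05. Of the endothelial markers 6 were above 0 and 2 below. One of those below was Tek, which had the smallest p of that list (-0.84, limma adjusted p = 0.078). How these shifts bear on the respiratory chain values of whole skin was not tested.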

How the data were processed

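The data were log2 expression values of Affymetrix arrays, made from 6 ug of total RNA per the labels' protocols. The authors deposited log2 values, for which the submitters' processing notes list Transcriptome Analysis Console and RMA without versions. The genome build, annotation and any filter: not given in the sources used here. Of 22206 rows 19572 had 1 gene symbol from the platform annotation and 2634 were unnamed; for a gene with several rows the brightest by mean was used, giving 19505 genes. Differences were fitted with lmFit and eBayes of limma 3.58.1 (R 4.3.3), two-sided, without covariates, adjusted by Benjamini-Hochberg over all genes (threshold 0.05), and checked on simulated data. List medians and counts carry no test.

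Members and lists were chosen with earlier results of these data known. Named members were the 3 of smallest p and the 1 of largest difference per complex and the preset isoform sets, plus up to 2 genes per other list. Ndufb4, Ndufa6, Uqcrh, Cyc1, the core subunits and the Rieske protein fall outside this rule. So do the genes listed for stretch replicate 1 and the regulators Nrf1, Gabpa and Ppargc1a. All were chosen after their values were seen, as were Atp5b and the structural subgroups of the complexes. The motif letters were also chosen then. Alternatives were renormalization, a filter on dim genes, averaging or keeping all rows, the variance model, array weights, a replicate block, and leaving out arrays.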

Additional observations from a re-analysis of the deposited data

Results flagged for a closer look

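In 76 groups of values (each named member and each complex median, in either group of arrays), 12 held 1 array far from the others of its group by Dixon's ratio at the 95% level. Chance gives about 1 in 20 for independent groups. That rate does not apply here, since the groups share the same 9 arrays and some members were named for their large difference. Stretch replicate 1 was the far array in 9 of the 12. It was high for Atp5md (16.72, next 14.03), Cox7b (16.34, next 14.21), Cox7a2 (13.41, next 11.62), Cox6c (17.36, next 16.05), Atp5mpl (15.25, next 13.93) and Uqcr10 (10.78, next 9.94). It was low for Cox6a2 (8.21, next 9.85), Cox8a (11.68, next 12.51) and Atp5g3 (11.63, next 12.50). No-stretch replicate 1 was low for the row named Ndufb4b (11.25, next 12.07) and for the median deviation of complex I (-0.28, next 0.11). Cox6b2 was at 3.32 in no-stretch replicate 4 and at 3.21 in the other 3, a gap of little size at a level where the gene hardly varied.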

How the results depend on the processing

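No respiratory chain member passed under any of the 18 alternatives (limma; 4 to 10 members at an unadjusted p under 0.05), and the median over the members was between 0.068 and 0.19. The medians by complex moved by less than the spread between arrays. The count over all genes depended on the setting: 48 as reported, 105 without the dimmest 25% of genes, 157 with array weights, and 2 to 195 when single arrays were left out (2 without stretch replicate 2 or no-stretch replicate 3, 195 without stretch replicate 3). With the replicate number as a block over replicates 1 to 4, 221 genes passed, no member did, and the members' median was 0.17. The labels do not say whether the numbers pair the arrays. Deviations of same-numbered arrays correlated at -0.062, -0.018, 0.064 and 0.34 for replicates 1 to 4, which cannot settle it. Without stretch replicate 1 and no-stretch replicate 3 together, an alternative chosen after seeing the data, 15 genes passed. Over all alternatives 37 values of named members changed sign, all in genes whose interval spans 0, and 555 did not; the cause was not tested. The sign changes were in Atp5g2 (-0.079), Cox4i1 (-0.053) and Cox8b (0.016) under quantile normalization, Cox8b (0.027) with array medians subtracted, Cox4i1 (-0.017), Cox8b (0.069) and Sdhc (0.0062) with array weights, Atp5g2 (-0.21) under the replicate block, and Atp5g3 (0.025), Cox6a2 (0.039), Cox8a (0.061), Cox8b (0.18) and Sdhc (0.063) without both arrays. Leaving out single arrays gave ranges across 0 for Atp5g2 -0.21 to 0.38, Atp5g3 -0.19 to 0.14, Cox4i1 -0.071 to 0.058, Cox6a2 -0.48 to 0.087, Cox7a2 -0.036 to 0.49, Cox8a -0.14 to 0.16, Cox8b -0.26 to 0.26, Cox8c -0.29 to 0.017, Ndufa4 -0.55 to 0.021, Sdha -0.27 to 0.089, Sdhc -0.12 to 0.079. The median shift of all genes stayed under 0.1 in every setting. Scan dates and detection calls were not used here.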
